A study of Mus musculus with 6 samples.

Results

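The genes described here mark T cells, natural killer (NK) cells and innate lymphoid cells. They are 36 genes with 57 probes, of 36995 genes and 56605 probes on the array. The genes are a list of markers of these cells, and their probes are all non-control probes that carry one of the 36 names in the scanner file. Total RNA was from common bile duct epithelium. The mice were C57BL/6 of the line labelled iFGF10, said to carry an inducible Fgf10 construct. In 3 samples the mice had been given 0.02% doxycycline in their drinking water for 5 days (DOX+), and in 3 samples water alone for 5 days (DOX-). The source names call both groups iFGF10, while the descriptions of the DOX- samples begin with WT followed by a pair of numbers. These labels do not settle whether DOX- mice had the construct, nor whether a sample is 1 animal or a pool. The promoter that drives the construct and the age of the mice are not given in the sources used here. There was no group given doxycycline without the construct, so the drug and the induced gene cannot be told apart. FGF10 is a secreted growth factor that acts mainly through the epithelial receptor FGFR2. The title of the series concerns papillary neoplasia of the biliary tree, and the comparison here asks how lymphocyte transcripts in the duct differ after induction.

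T cells recognise antigen through a receptor whose signal passes through the CD3 chains and CD247 (the zeta chain). The kinase LCK phosphorylates tyrosines in these chains, ZAP70 docks there, and the adaptor LAT relays the signal. CD4 and CD8 are co-receptors that divide helper from cytotoxic T cells. NK cells carry no such receptor and sense targets through receptors of the KLR family, and both NK cells and cytotoxic T cells kill with perforin and granzymes. Innate lymphoid cells lack antigen receptors as well and depend on interleukin 7 and on factors such as GATA3 and RORA. Lymphocytes that lie between epithelial cells are a normal part of many mucosal linings.

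The probe decides what a gene's signal can mean, and 5 of the 57 probes are shown. None of these 5 stood for its gene in the test. Cd3d, Cd247, Cd4 and Klrb1c were tested with other probes, whose sequences are not shown, and Cd8a was not tested. The 5 were chosen because they read 2 signalling chains and 3 markers that define a lineage. The capitals mark an ITAM, the tyrosine-based stretch that LCK phosphorylates. It was found by a script as the ITAM codon pattern, searched on both strands.
Cd3d probe: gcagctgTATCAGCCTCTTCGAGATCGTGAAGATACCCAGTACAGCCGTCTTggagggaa
Cd247 probe: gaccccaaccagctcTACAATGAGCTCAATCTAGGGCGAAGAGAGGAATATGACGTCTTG
Cd4 probe: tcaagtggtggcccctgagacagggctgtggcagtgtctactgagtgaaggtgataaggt
Cd8a probe: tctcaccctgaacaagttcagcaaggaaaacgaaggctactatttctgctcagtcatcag
Klrb1c probe: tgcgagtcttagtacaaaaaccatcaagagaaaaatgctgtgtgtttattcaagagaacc
The Cd3d probe was well above background on 6 of 6 arrays, the Cd4 probe on 1, and the Cd247, Cd8a and Klrb1c probes on 0. Each is 60 bases and is printed as the scanner files give it. The ITAM pattern was present in 2 of the 57 lymphoid probes, those of Cd3d and Cd247, and in 0.14% of all probes on the printed strand and 0.127% on the other strand. On mm9, the build of the array design, these probes lie at chr9:44794171-44794402 (Cd3d, plus strand, across an intron), chr1:167786567-167787585 (Cd247, plus strand, across an intron), chr6:124817706-124817765 (Cd4, minus strand), chr6:71323885-71323944 (Cd8a, plus strand) and chr6:128734770-128734829 (Klrb1c, minus strand).

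Of the 36 genes, 18 had a probe well above background on all 6 arrays. A further 6 (Cd5, Icos, Gzma, Klrb1c, Klrk1 and Gata3) reached it on all 3 DOX+ arrays but on only 1 or 2 DOX- arrays, so that they entered the test through the DOX+ group. These 24 genes were tested. The other 12 were not, because no probe of theirs was well above background on all 3 arrays of a group. DOX- replicate 3 was the array on which lymphoid signals were lowest: it held the lowest value of 16 of the 24 genes tested, where 20.3% of all genes tested were lowest on it. Each of the 6 genes that entered through DOX+ was not well above background on that array.

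**Figure D1:**
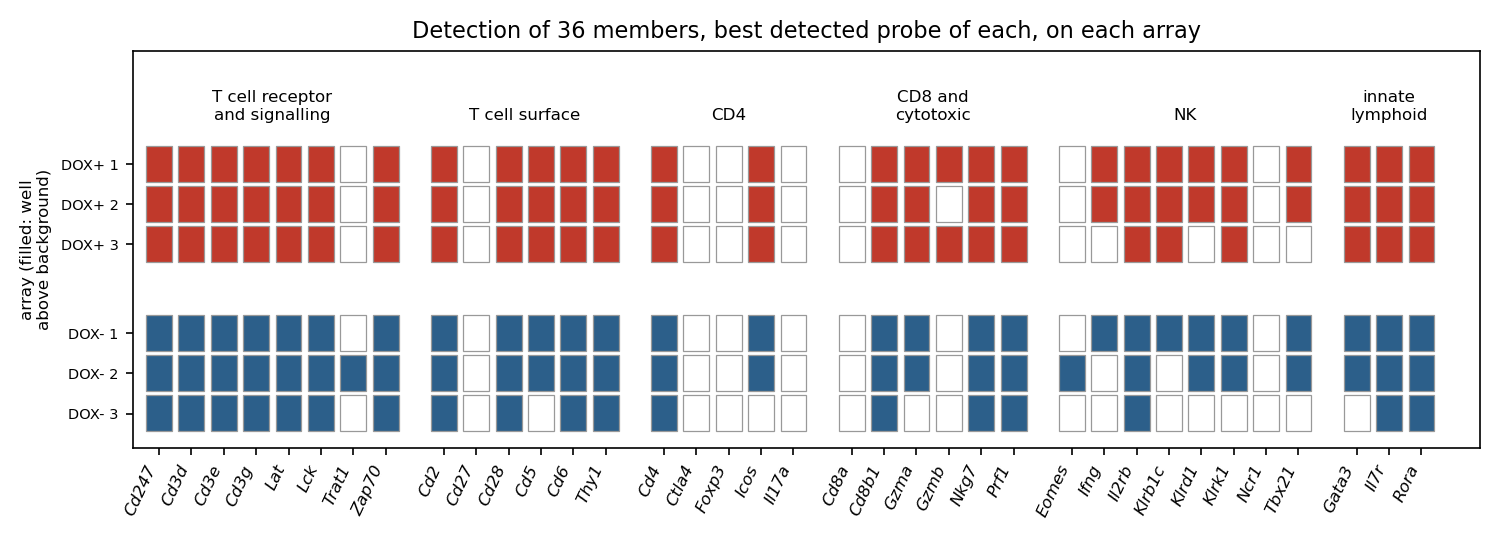
Detection of the 36 lymphoid genes. Each column is a gene, by role, and each square is an array; a filled square (red for DOX+, blue for DOX-) means that the gene's best detected probe was well above background there. Most of the empty squares among the genes tested are on DOX- replicate 3, and Cd27, Ctla4, Foxp3, Il17a, Cd8a and Ncr1 are empty on all 6 arrays.

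No lymphoid gene passed the test between the groups. With limma and Benjamini-Hochberg adjustment over 20724 genes, 0 of the 24 had an adjusted p under 0.05, where 0.0386% of all genes tested (8) did, 0.0193% higher and 0.0193% lower. At an unadjusted p under 0.05 there were 4 of 24, all higher in DOX+, where the share of all genes tested was 13.3%, with 7.03% higher and 6.32% lower. The same 4 genes, Cd28, Cd6, Il2rb and Klrb1c, had groups that did not overlap, where the share of all genes was 21%, with 10.1% higher and 10.9% lower. In total, 4 of 24 is near the share over all genes. The filter let in 6 of the 24, Klrb1c among them, through DOX+ alone, which favours higher means. No direction is therefore read from these 4. With slide row as a block, 0 of 24 had an unadjusted p under 0.05 (6.8% of all genes), and with array weights 8 of 24 (23.5% of all genes). The means of 18 of the 24 were higher in DOX+ and of 6 lower, and the median log2 difference was 0.35, beside 48.3% higher, 51.7% lower and a median of -0.01 over all genes tested. That lean came with DOX- replicate 3: without it, 14 had higher and 10 lower means (median 0.09). With slide row as a block, so that DOX- replicate 1 is the only control in the row of the DOX+ arrays, 13 had higher and 11 lower means (median 0.07). In RNA from a sample of many cells, fewer cells of a type and less RNA per cell cannot be told apart.

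**Figure D2:**
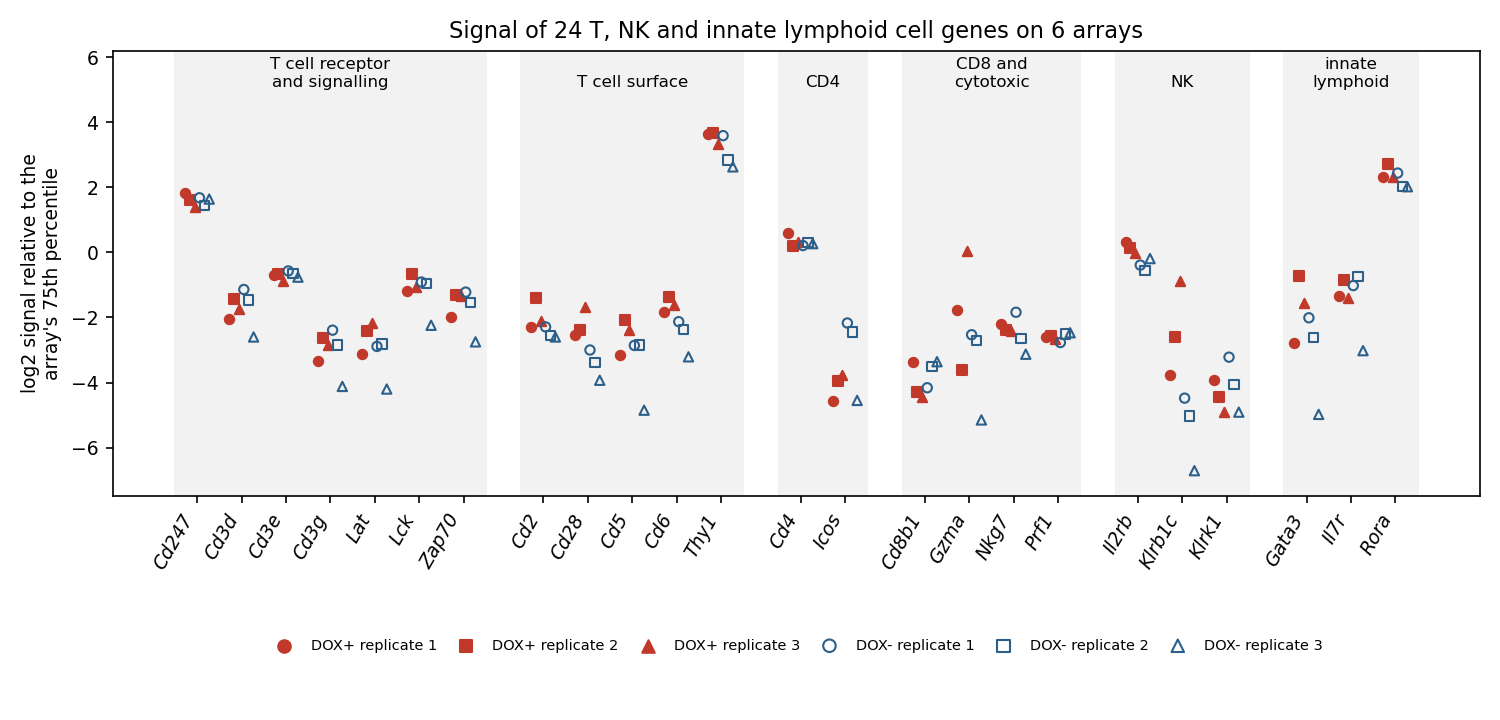
Signal of the 24 tested genes on each array, as log2 of the processed intensity relative to the array's 75th percentile, by role. Red filled symbols are DOX+, blue open symbols are DOX-, and the shape gives the replicate. DOX- replicate 3 (open triangles) is the lowest array for 16 of the 24 genes.

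In the receptor complex the groups overlapped for each gene. All values below are log2 signals relative to the array's 75th percentile, with DOX+ replicates 1 to 3 given before DOX- replicates 1 to 3. Cd3d, an invariant chain of the receptor, read -2.04, -1.44 and -1.74 in DOX+ and -1.14, -1.46 and -2.60 in DOX-. The spread within DOX- was wider than the gap between the groups, which was -0.01 (SE 0.40). Its ITAM probe shown above gave a log2 difference of 0.05 (SE 0.42). Cd3g, another invariant chain, read -3.33, -2.64 and -2.86 against -2.39, -2.85 and -4.12, a difference of 0.18 (SE 0.46). Both genes thus had DOX- replicates 1 and 3 at the top and the bottom, with the DOX+ arrays between them.

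Cd3e, the third CD3 chain, read -0.69, -0.66 and -0.87 in DOX+ and -0.57, -0.64 and -0.76 in DOX-, a difference of -0.08 (SE 0.13). Its second probe, at chr9:44807254-44807313, gave 0.05 (SE 0.29), with the same overlap. Cd247 depended on the probe. The probe at chr1:167791567-167791626 was well above background on all 6 arrays, between 1.40 and 1.83, with a difference of 0.03 (SE 0.16), while its other 3 probes, the ITAM probe among them, were well above background on 0 of 6 arrays. The value printed for Cd247 is therefore that of 1 probe whose signal the other probes of the gene do not share.

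Lck, the kinase that starts the signal, read -1.20, -0.66 and -1.06 in DOX+ and -0.91, -0.95 and -2.24 in DOX-, a difference of 0.39 (SE 0.39; limma adjusted p = 0.689). Zap70, the kinase that docks on the phosphorylated chains, read -1.99, -1.30 and -1.34 against -1.22, -1.55 and -2.75, a difference of 0.30 (SE 0.43). Lat, the adaptor, read -3.13, -2.42 and -2.17 against -2.89, -2.82 and -4.20, a difference of 0.73 (SE 0.44; limma adjusted p = 0.510). In all 3 genes the lowest array was DOX- replicate 3, and the other 5 arrays overlapped. Without DOX- replicate 3 the differences of Lck, Zap70 and Lat were -0.04, -0.16 and 0.28. A second Zap70 probe, detected on every array, gave 0.04 (SE 0.26), and a second Lck probe was well above background on 2 arrays of each group. Trat1, an adaptor that stabilises the receptor at the surface, was well above background only on DOX- replicate 2, for 1 of its 2 probes.

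Genes of the T cell surface had higher means in DOX+ for all 5 that were tested (median log2 difference 0.97). Cd28, the co-stimulatory receptor for CD80 and CD86, read -2.55, -2.39 and -1.69 in DOX+ and -3.00, -3.38 and -3.93 in DOX-. The groups did not overlap, and the difference was 1.22 (SE 0.32), 2.34-fold, and the limma adjusted p was 0.241. Without DOX- replicate 3 it was 0.98, and with slide row as a block 0.79. A second Cd28 probe, at chr1:60820867-60820926, was well above background on 0 of 6 arrays. The detected probe lies at chr1:60830144-60830203.

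Cd6, a scavenger receptor that binds ALCAM and tunes receptor signalling, read -1.82, -1.38 and -1.61 in DOX+ and -2.13, -2.37 and -3.21 in DOX-. The groups did not overlap here either, and the difference was 0.97 (SE 0.30; limma adjusted p = 0.293), with a single probe at chr19:10863891-10863950. Without DOX- replicate 3 it was 0.64, and with slide row as a block 0.52. Cd5, a related receptor that dampens the signal, read -3.14, -2.09 and -2.40 against -2.86, -2.85 and -4.85, a difference of 0.98 (SE 0.60) that was 0.31 without DOX- replicate 3. For Cd5 the groups overlapped, and the array at -4.85 was not well above background.

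Cd2, an adhesion receptor of T and NK cells that binds CD48, read -2.30, -1.41 and -2.10 in DOX+ and -2.29, -2.56 and -2.60 in DOX-, a difference of 0.55 (SE 0.25; limma adjusted p = 0.406). The groups touched through DOX+ replicate 1 and DOX- replicate 1. Its second probe, which overlaps the first, gave 0.74 (SE 0.41). Thy1, which T cells, innate lymphoid cells and also stromal cells and neurons express, read 3.65, 3.67 and 3.32 against 3.59, 2.84 and 2.63. Its difference of 0.52 (SE 0.27) was -0.04 with slide row as a block, and DOX- replicate 1 lay among the DOX+ arrays. Cd27, a co-stimulatory receptor of the tumour necrosis factor receptor family, was well above background on 0 of 6 arrays.

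**Figure D3:**
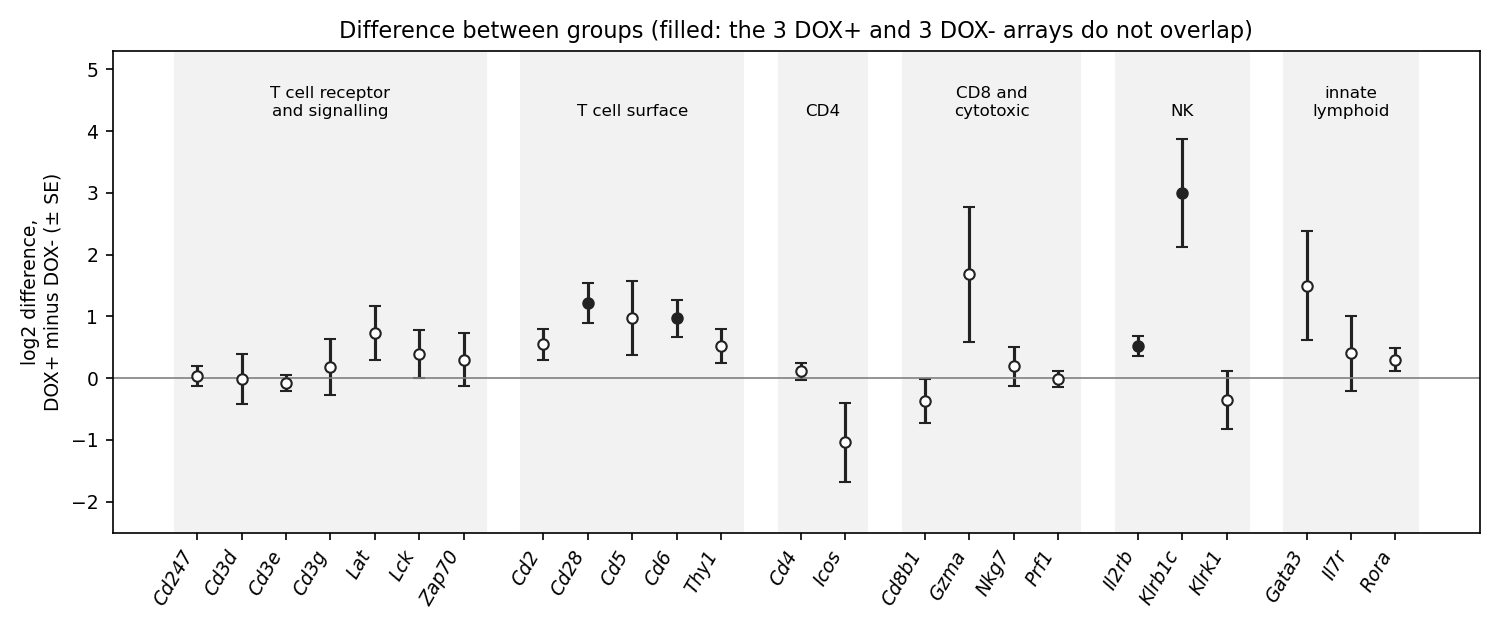
Log2 difference between the group means of each tested gene, DOX+ minus DOX-, with its standard error from the limma fit, by role. Filled points are the 4 genes whose groups do not overlap: Cd28, Cd6, Il2rb and Klrb1c. The T cell receptor group lies around 0, from -0.08 to 0.73, and the widest error bars belong to Gzma, Gata3 and Klrb1c.

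Among CD4 helper and regulatory genes, 2 of 5 were tested. Cd4, the helper co-receptor, had 1 probe well above background on all arrays, at chr6:124814711-124814770, which read 0.59, 0.21 and 0.32 in DOX+ and 0.21, 0.31 and 0.27 in DOX-. The difference was 0.11 (SE 0.14), and the arrays of both groups overlapped. The other 2 Cd4 probes did not share that signal: the probe printed above was well above background only on DOX+ replicate 2, and the third on no array. Icos, a co-stimulatory receptor induced on activated T cells and also carried by group 2 innate lymphoid cells, differed within the controls. It read -4.56, -3.95 and -3.78 in DOX+ and -2.17, -2.45 and -4.55 in DOX-. DOX- replicates 1 and 2 lay above all DOX+ arrays, while DOX- replicate 3 was level with the lowest DOX+ array and was not well above background. The difference was -1.04 (SE 0.64; limma adjusted p = 0.517), and without DOX- replicate 3 it was -1.79 (limma adjusted p = 0.146).

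The regulatory T cell genes Foxp3, its master transcription factor, and Ctla4, an inhibitory receptor, were well above background on 0 of 6 arrays, as was the cytokine gene Il17a. For these 3 genes the signals give only an upper bound, and no difference between the groups can be read.

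CD8 and cytotoxic genes were tested for 4 of 6 members, 2 with a higher and 2 with a lower mean in DOX+, and the median log2 difference was 0.09. Cd8a, which both forms of the co-receptor need, was well above background on 0 of 6 arrays for either of its 2 probes. Cd8b1, the partner chain of the conventional co-receptor, read -3.37, -4.30 and -4.45 in DOX+ and -4.16, -3.50 and -3.36 in DOX-. The difference of -0.37 (SE 0.35) was within the spread of each group. Prf1, the pore-forming protein perforin, read -2.60, -2.56 and -2.65 against -2.77, -2.51 and -2.47, a difference of -0.02 (SE 0.13) over 6 nearly level arrays. Nkg7, a granule membrane protein of cytotoxic cells, read -2.20, -2.39 and -2.43 against -1.84, -2.64 and -3.13, a difference of 0.19 (SE 0.32), with the DOX+ arrays inside the range of the DOX- arrays.

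The granzymes varied widely between arrays of the same group. Gzma, a serine protease of cytotoxic granules, read -1.78, -3.60 and 0.04 in DOX+ and -2.53, -2.71 and -5.15 in DOX-. Its difference of 1.68 (SE 1.09; limma adjusted p = 0.536) was 0.77 without DOX+ replicate 3 and 0.84 without DOX- replicate 3, so those arrays carried it. Gzmb, the main caspase-cleaving granzyme, was well above background on DOX+ replicates 1 and 3 only, at -4.73 and -2.99. Its signals on the other arrays were -5.72 in DOX+ replicate 2 and -4.98, -6.57 and -6.95 in DOX-. Against the detection limit of the DOX- arrays the DOX+ mean was 1.33-fold higher, and the groups overlapped. That mean takes the DOX+ replicate 2 signal, not well above background, at its value, so the fold is not a strict lower bound. It rested on DOX+ replicate 3: without that array the DOX+ mean was -5.23, under the limit of -4.90, and no fold can be given. For this fold and the bounds below, the mean of the bright group is compared with a limit for the dim group. That limit is, for each array, the lowest signal that counts as well above background, or the probe's own signal if higher.

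Among NK genes, 3 of 8 were tested. Klrb1c encodes the NK1.1 antigen, an activating receptor of NK cells and of some T cells. It entered the test through the DOX+ group, where it was high, which favours a higher DOX+ mean. No direction is therefore read from Klrb1c. Its probe at chr6:128728603-128728662 read -3.78, -2.59 and -0.87 in DOX+ and -4.48, -5.03 and -6.71 in DOX-. All DOX+ arrays lay above all DOX- arrays, and of the latter only replicate 1 was well above background. The measured difference, which takes 2 DOX- signals that were not well above background at their value, was 3.00 (SE 0.87), with limma adjusted p = 0.270. It was 2.07 with slide row as a block, 2.34 without DOX- replicate 3 and 2.23 without DOX+ replicate 3, and 1.30 with normexp background correction.

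A second Klrb1c probe, at chr6:128729611-128729670, read -4.50, -2.87 and -1.01 in DOX+ and -5.64, -5.61 and -6.98 in DOX-. None of its DOX- signals was well above background, and DOX+ was at least 4.34-fold higher (limma adjusted p over all kept probes = 0.249), or at least 2.34-fold without DOX+ replicate 3. The third, printed above, was well above background on 0 of 6 arrays, so the probes of this gene disagree. Near-identical relatives could share its signal. Of those, Klrb1a was well above background on 1 array of each group, Klrb1f on 1 DOX- array and Klrb1b on 2 DOX- arrays. For Klrb1b the detected probe had lower signals in all DOX+ arrays than in all DOX- arrays.

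Il2rb, the beta chain of the receptors for interleukins 2 and 15, read 0.32, 0.14 and -0.03 in DOX+ and -0.39, -0.56 and -0.19 in DOX-. The groups did not overlap, and the difference was 0.52 (SE 0.16), 1.44-fold (limma adjusted p = 0.290). Its second probe, at chr15:78311109-78311168, also had groups that did not overlap, with a difference of 0.40 (SE 0.18). Across 15 other ways of processing the first probe's difference stayed between 0.43 and 0.67, and its adjusted p ran from 0.0697 to 0.771. DOX- replicate 3 was the highest of the DOX- arrays for the first probe, unlike for most of the T cell genes. For the second probe DOX- replicate 1 was the highest of them, at -1.28, beside -1.35 on DOX- replicate 3.

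Klrk1, the receptor NKG2D, which binds stress-induced ligands on epithelial cells, read -3.93, -4.45 and -4.90 in DOX+ and -3.22, -4.06 and -4.91 in DOX-, a difference of -0.36 (SE 0.47) with overlapping groups. Its second probe was well above background on no array. Klrd1 (CD94, the partner of NKG2A) and Tbx21 (T-bet, the factor of type 1 lymphocytes) were each well above background on DOX+ replicates 1 and 2 and DOX- replicates 1 and 2. Klrd1 read -3.66, -3.59 and -5.02 against -2.61, -2.75 and -5.68, and Tbx21 read -4.24, -4.54 and -5.05 against -3.31, -4.72 and -5.08. Both were low on the third array of each group. Ifng, the type 1 cytokine interferon gamma, was well above background on DOX+ replicates 1 and 2 and DOX- replicate 1, at -4.66, -2.91 and -3.16. Eomes, a factor of NK and memory CD8 cells, was so on DOX- replicate 2 alone, for 1 of 2 probes. Ncr1, the NK receptor NKp46, was well above background on 0 of 6 arrays.

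**Figure D4:**
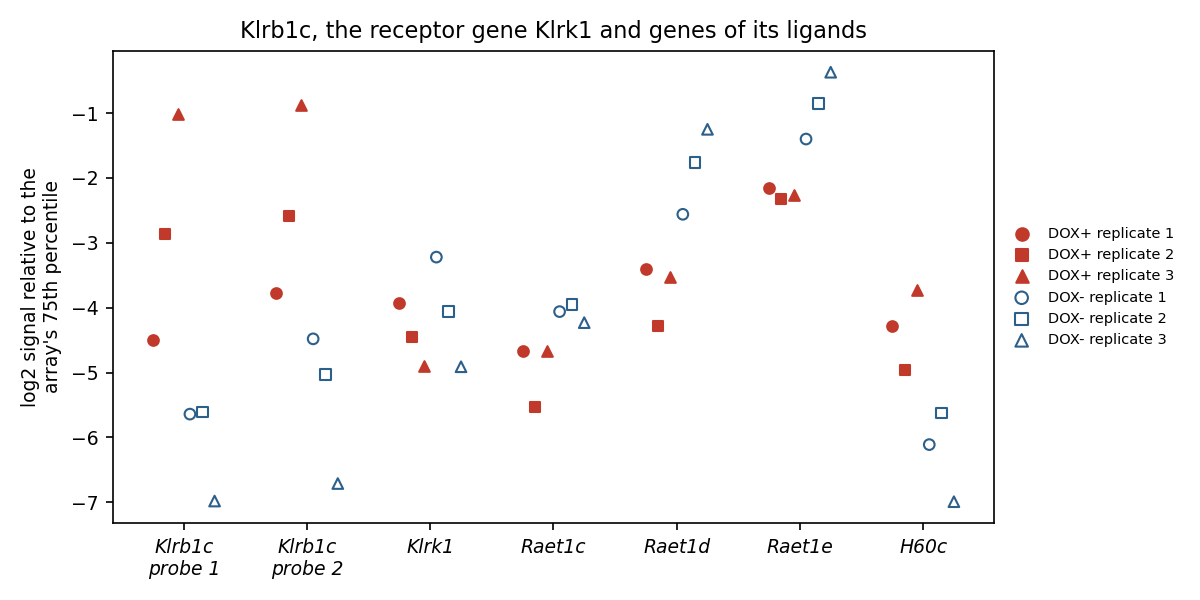
Signal on each array, as log2 relative to the array's 75th percentile, of the 2 detected Klrb1c probes, of Klrk1 and of genes of its ligands, with symbols as red filled for DOX+ and blue open for DOX-. Both Klrb1c probes and H60c lie higher in DOX+, the Raet1 genes lie lower, and Klrk1 overlaps between the groups.

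All 3 innate lymphoid genes were tested, and all had a higher mean in DOX+ (median log2 difference 0.40). Gata3, the factor of group 2 innate lymphoid cells and type 2 helper T cells, read -2.79, -0.74 and -1.56 in DOX+ and -2.01, -2.61 and -4.98 in DOX-. Its groups overlapped through DOX+ replicate 1, and the difference was 1.5 (SE 0.88; limma adjusted p = 0.498). Without DOX- replicate 3 it was 0.61, and with slide row as a block 0.31. Il7r, the interleukin 7 receptor that sustains innate lymphoid and naive T cells, read -1.34, -0.84 and -1.40 against -1.02, -0.73 and -3.02. Its difference of 0.40 (SE 0.60) was -0.32 without DOX- replicate 3, and the other DOX- arrays lay within or above the range of the DOX+ arrays. A second Il7r probe did not share this signal: it was well above background on DOX- replicate 1 alone, at -3.22.

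Rora, a nuclear receptor of group 2 innate lymphoid cells that epithelial and other cells also express, had 3 probes well above background on all arrays. The probe used read 2.33, 2.73 and 2.32 in DOX+ and 2.44, 2.02 and 2.02 in DOX-, a difference of 0.30 (SE 0.19). The other 2 gave 0.51 (SE 0.22) and 0.73 (SE 0.30), the latter at chr9:68511835-68511894. The groups overlapped for each of the 3 probes.

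Set side by side, the role groups had median log2 differences of 0.18 (T cell receptor and signalling, 7 of 8 tested), 0.97 (T cell surface, 5 of 6), -0.47 (CD4 helper and regulatory, 2 of 5), 0.09 (CD8 and cytotoxic, 4 of 6), 0.52 (NK, 3 of 8) and 0.40 (innate lymphoid, 3 of 3). The differences between these groups were not tested. The array means of the T cell receptor group were -1.51, -1.07 and -1.23 in DOX+ and -1.06, -1.26 and -2.15 in DOX-, so they overlapped. Those of the surface group were -1.23, -0.72 and -0.90 against -1.34, -1.66 and -2.39, and those of the NK group -2.46, -2.30 and -1.94 against -2.70, -3.21 and -3.94. In these last 2 groups the DOX+ arrays all lay above the DOX- arrays. For NK this rested on Klrb1c: without it the means of the other 2 genes were -1.80, -2.15 and -2.47 against -1.80, -2.31 and -2.55, which overlap. Without Cd5, which also entered through DOX+, the surface means were -0.76, -0.38 and -0.52 against -0.96, -1.37 and -1.78 and still did not overlap.

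Lists of other cell types did not all move in the direction of the lymphoid genes. Their part in the lymphoid values was not tested. Of 10 general leukocyte genes, all 10 were tested, 0 passed (0 with an unadjusted limma p under 0.05) and all 10 had a lower mean in DOX+. Their summed signal, in units of the array's 75th percentile, was 17.6 to 27.1 in DOX+ and 37.7, 42.6 and 16.9 in DOX- replicates 1 to 3. DOX- replicate 3 was thus the array with the least leukocyte signal as well as the lowest for most lymphoid genes. Macrophage and dendritic cell genes (10 of 12 tested) summed to 15.8 to 22.1 in DOX+ and 28.7, 24.9 and 11.2 in DOX-, with the same array lowest. B cell genes (5 of 10 tested, without the defining markers Ms4a1 and Cd79a) summed to 1.26 to 1.86 and 1.31 to 1.79. Smooth muscle genes (6 of 6 tested) summed to 174, 119 and 74.5 in DOX+ and 301, 57 and 62.9 in DOX-, so the controls differed widely. Fibroblast genes (6 of 6 tested) summed to 130, 118 and 79.1 against 150, 98.2 and 109. Neutrophil genes (6 of 8 tested) summed to 97.5, 96.5 and 114 against 151, 156 and 92. Most of each sum was Csf3r, which read 6.47 to 6.66 on every array, so the sums hide wider changes. S100a8 ran from -3.32 to 4.02 over the arrays and S100a9 from -1.80 to 5.55. These 2 had lower means in DOX+, and the other 4 tested had higher means. Csf3r, S100a8 and S100a9 were named after their values were seen. Eosinophil genes (3 of 6 tested, without Prg2, Epx and Ccr3) summed to 0.538, 0.707 and 3.9 against 1.67, 3.17 and 2.13. Those tested were Siglecf, Il5ra and Ear6, and Siglecf made up most of each sum. Duct epithelium genes, 10 of 10 tested, summed to 500 to 550 in DOX+ and 557, 600 and 745 in DOX-. The labelled tissue's markers were thus present on every array, with every DOX+ sum below every DOX- sum and DOX- replicate 3 highest. Of the 10, 9 had a lower and 1 a higher mean in DOX+. None passed the limma test, 2 had an unadjusted p under 0.05 and 4 had groups that did not overlap, all of them lower. Over all genes tested those shares were 13.3% (6.32% lower) and 21% (10.9% lower).

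Mast cell genes were higher in DOX+ for all 9 tested of 10 listed (all but Tpsab1). Of these, 7 had an unadjusted limma p under 0.05 and 0 passed the adjusted threshold. Fcer1a and Ms4a2, among the 7, entered the test through DOX+ alone. Over all genes tested 13.3% had an unadjusted limma p under 0.05, with 7.03% higher. They summed to 9.54, 16.1 and 106 in DOX+ and 6.41, 3.18 and 2.72 in DOX-. DOX+ replicate 3 was the highest array for this list and for both detected Klrb1c probes. Endothelial genes were higher in DOX+ for 7 of 7. Of these, 4 (Pecam1, Plvap, Tie1 and Vwf) had an unadjusted limma p under 0.05 and groups that did not overlap. None passed the adjusted threshold. The share of all genes tested whose groups did not overlap was 21%, with 10.1% higher. Their sums were 18.3, 18.5 and 14.1 in DOX+ and 11.7, 8.19 and 9.55 in DOX-. All DOX+ arrays thus lay above all DOX- arrays, as for the surface group means and Klrb1c. Within DOX+, replicate 3 was the lowest array for the endothelial sum but the highest for Klrb1c. Of 7 plasma cell genes 5 were tested, 3 higher and 2 lower, and Jchain (3.63, SE 1.85) and Mzb1 (2.75, SE 0.86) had groups that did not overlap. Both were well above background on only 2 DOX- arrays, so they entered the test through DOX+ alone, which favours higher means. Jchain read 2.60, 3.28 and 3.67 in DOX+ and 2.21, 1.44 and -4.97 in DOX-, so DOX- replicate 3 weighed heavily in its difference. Jchain, Mzb1 and the 4 endothelial genes were named after their values were seen. Mast cells can express Gzmb and the interleukin 33 receptor Il1rl1, so those signals need not come from lymphocytes.

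**Figure D5:**
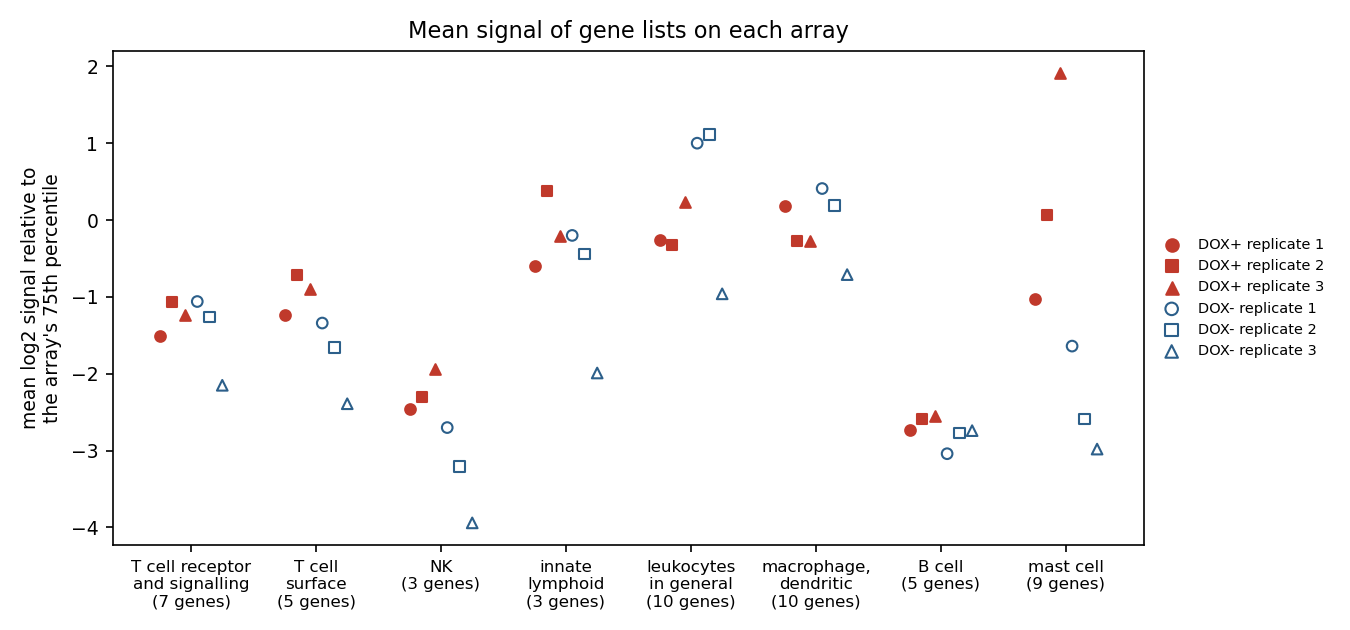
Mean log2 signal, relative to the array's 75th percentile, of 8 gene lists on each array, with DOX+ in red filled and DOX- in blue open symbols. DOX- replicate 3 (open triangles) is the lowest array in all lists shown except the B cell list, and mast cell genes spread from -2.98 to 1.91.

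Of 37 other T cell genes 21 were tested, 15 with a higher and 6 with a lower mean in DOX+ (median 0.30), and 0 passed (0 with an unadjusted limma p under 0.05). The smallest p-values belonged to Itgae, the integrin CD103 that holds T cells in epithelium, with -1.35, -1.18 and 0.78 against -1.86, -1.68 and -2.27 and a difference of 1.36 (SE 0.57; limma adjusted p = 0.382), then Zbtb7b (0.33, SE 0.16), the CD4 lineage factor, and the adaptor Skap1 (0.86, SE 0.41). The 3 DOX+ arrays of Itgae lay above the 3 DOX- arrays, by the widest margin on DOX+ replicate 3. Mast cells can express Itgae too, and that array had the highest mast cell signal, but the source of the Itgae signal was not tested.

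Of 26 other cytotoxic and NK genes 8 were tested, 3 higher and 5 lower, with a median of -0.16. None passed the limma test, and 2 had an unadjusted p under 0.05, beside 13.3% of all genes tested. Klra1, a Ly49 receptor, differed by -0.90 (SE 0.19; limma adjusted p = 0.200), with groups that did not overlap, with -1.14, -1.49 and -1.26 in DOX+ against -0.05, -0.57 and -0.57 in DOX-. Ly49 genes are close copies of each other, so which one gave the signal is uncertain. Gzmm, a further granzyme, had 1.17 (SE 0.41; limma adjusted p = 0.325) and Ccl5, a chemokine of activated T cells, 0.65 (SE 0.34).

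Of 21 other innate lymphoid genes 11 were tested, 5 higher and 6 lower, with a median of -0.11. None passed the limma test, and 2 had an unadjusted p under 0.05, beside 13.3% of all genes tested. Il1rl1, the interleukin 33 receptor ST2, read -1.37, -0.19 and 0.36 in DOX+ and -1.89, -2.95 and -3.53 in DOX-, a difference of 2.39 (SE 0.57; limma adjusted p = 0.219) with groups that did not overlap. Zbtb16, the factor PLZF of innate-like lymphocytes, had 1.60 (SE 0.55), and Il18r1, an interleukin 18 receptor chain, -0.94 (SE 0.48). For Zbtb16 and Il18r1 the groups overlapped.

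The last list held 23 ligands of the receptors above, of which 16 were tested, 6 higher and 10 lower (median -0.17). None passed the limma test, and 4 had an unadjusted p under 0.05, where the share of all genes tested was 13.3%. Of these 4, 3 were ligands of NKG2D that were lower in DOX+ and 1 a ligand of NKG2D that was higher. Raet1e read -2.15, -2.32 and -2.26 in DOX+ and -1.40, -0.85 and -0.37 in DOX-, a difference of -1.37 (SE 0.26; limma adjusted p = 0.177). Raet1d read -3.40, -4.28 and -3.52 against -2.56, -1.76 and -1.25, a difference of -1.88 (SE 0.39; limma adjusted p = 0.194). Raet1c, named here after its values were seen, had -0.87 (SE 0.26, limma adjusted p = 0.286). It entered the test through DOX- alone, where it was higher. All 3 had groups that did not overlap. They are near-identical copies, so they are not 3 independent measurements.

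H60c, a different NKG2D ligand found in skin and other epithelia, read -4.28, -4.96 and -3.73 in DOX+ and -6.11, -5.62 and -6.99 in DOX-. In DOX- it was well above background on no array, so it entered the test through DOX+ alone. The signal was at least 1.5-fold higher in DOX+ (limma adjusted p = 0.211). Il15, the cytokine that binds the Il2rb chain, had -0.18 (SE 0.21), and Il7, the ligand of Il7r, -0.24 (SE 0.18). Both overlapped between the groups. Alcam, the ligand of CD6, had -0.15 (SE 0.19), and Cd80 and Cd86, the ligands of CD28, had -0.49 (SE 0.42) and 0.21 (SE 0.41). Il15, Il7, Alcam, Cd80 and Cd86 were named as partners of the receptors described, after their values were seen.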

How the data were processed

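Each RNA was hybridised to 1 Agilent 1-colour array, on 1 slide scanned once. The deposited scanner files hold spot intensity. Feature Extraction is version 10.7.1.1 in the file headers but 9.5.1.1 in the submitters' processing notes. Background subtraction and detrending within the array are part of the processed intensity, per the file headers. The authors' series table, used as an alternative, holds intensity whose sorted columns differ by at most 0.000342 in relative terms. No source used here names the step between arrays. The software's 0 or 1 flags were used as deposited by the authors.

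Each log2 intensity was then taken relative to its array's 75th percentile over 59305 spots (666.16 to 910.07). Spots flagged as outliers (50 to 64 per array) were left out, no spot was saturated, and spots of 1 probe were averaged. A probe was kept when all 3 arrays of at least 1 group had it well above background (31719 of 56605), and the probe with the highest mean stood for a gene, giving 20724 genes. That rule takes a gene's brightest probe even where its other probes show no signal. Lymphoid probes keep the name in the file. Other probes took their name from RefSeq genes of GRCm38.p6 by accession (33895), symbol (9464) or older symbol (489), and 12757 kept the file's name. DOX+ was tested against DOX- in R 4.3.3 with limma 3.58.1 (lmFit, then eBayes). The model held the group only, tests were two-sided, and p-values were adjusted by Benjamini-Hochberg with 0.05 as threshold. Per the labels, nothing ties each sample to 1 animal beyond the stated number of mice, so a p-value reflects the spread among these samples only, which may be technical, and 3 arrays per group limit the precision. Every tested lymphoid gene is named, and of each of the 4 pathway lists the 3 genes with the smallest p. Cell marker lists are given by counts and sums, with a few of their genes named. The genes and lists were chosen with earlier results of these data known. DOX+ arrays and DOX- replicate 1 sat in slide row 1, the other DOX- arrays in row 2. Alternatives covered the background, scaling, the authors' values, filters, probe choice, slide row, replicate number, array weights (gene-by-gene method) and leaving out each array.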

Additional observations from a re-analysis of the deposited data

How the results depend on the processing

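No lymphoid gene passed the limma test, higher or lower, under any of 15 other ways of processing, or when every kept probe was tested on its own, which was added after seeing the data. The count was 0 to 0 when single arrays were left out, and the smallest adjusted p of any gene in those 15 was 0.0697. Leaving out single arrays gave medians of 0.09 to 0.57 for all tested genes, -0.13 to 0.54 for the T cell receptor group, 0.49 to 1.19 for the surface group, -0.84 to -0.26 for CD4, -0.03 to 0.21 for CD8, 0.43 to 0.62 for NK and 0.22 to 0.83 for innate lymphoid genes. The surface median was 0.53 with normexp background and 0.36 with slide row as a block. The CD4 median was 0.11 with probes well above background on all 6 arrays, because Cd4 alone was left. The NK median was -0.09 with no filter, because 8 genes then entered and most of them were dim. Of 24 genes, 13 kept their direction throughout and 11 did not. With slide row as a block the difference was -0.06 for Cd247, -0.56 for Cd3g, 0.11 for Cd8b1, -0.17 for Il7r, -0.06 for Lck, -0.50 for Nkg7, 0.17 for Prf1, -0.04 for Thy1 and -0.32 for Zap70. Without DOX- replicate 3 it was -0.32 for Cd3g, -0.32 for Il7r, -0.04 for Lck, -0.11 for Nkg7, 0.04 for Prf1 and -0.16 for Zap70. With array weights it was -0.05 for Cd3g and -0.18 for Il7r. Cd3d gave 0.02 as the mean of its kept probes, and without single arrays it ran from -0.44 to 0.29, above 0 without DOX+ replicate 1, DOX- replicate 1 or DOX- replicate 2 (0.14, 0.29 and 0.13). Without DOX+ replicate 1 and DOX- replicate 2 Cd247 gave -0.07 and -0.04. Klrk1 ran from -0.79 to 0.06 without single arrays, the last without DOX- replicate 1, Zap70 from -0.16 to 0.61, and without DOX+ replicate 3 and DOX- replicate 2 Prf1 gave 0.01 and 0.02. The cause was not tested. The replicate numbers do not pair the samples, since same-numbered arrays deviated from their group means with correlations across genes of -0.09, -0.13 and -0.02. With the replicate block the median was 0.35, and 0 lymphoid genes passed, with 4 at an unadjusted p under 0.05. That count was 0 with slide row as a block and 8 with array weights. Over all genes 8 passed in the reported setting, 0 with the replicate block or the slide row, 2 with the authors' values, 1 with no filter, 259 with array weights, and 0 to 9 without single arrays. Signal over background limits the 12 genes not tested.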
